A study of Homo sapiens with 12 samples.

Results

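The small nucleolar RNAs (snoRNAs) and small Cajal body RNAs (scaRNAs) of Raji cells, an established B cell line from a human Burkitt lymphoma, were followed across knockdowns of MBD2, CREM and MS4A1. Members were the genes whose annotated symbol starts with SNORD, SNORA or SCARNA and whose probe had a detection p under 0.05 on at least 2 of 12 Illumina BeadChip arrays, with 1 probe kept per gene. Of 301 such genes on the array, 223 were kept, among 13702 genes in all that passed the same filter. They comprised 114 of 176 C/D box snoRNAs (SNORD), 88 of 101 H/ACA box snoRNAs (SNORA) and 21 of 24 scaRNAs (SCARNA). Of the 78 genes left out, 50 were detected on no array and 28 on 1 array, while 16 of those kept were detected on exactly 2 arrays and 111 on all 12. Of the kept members, 4 were detected within a single group of arrays (SNORA60 and SNORD127 in shNTC of set 2, SNORD113-3 in shMS4A1 and SNORD9 in shMBD2), and none of the 4 is among the members called below.

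All cells had been infected with short hairpin RNAs, selected with puromycin for 48 h and harvested at day 3. The hairpins were shMBD2_A and shMBD2_C (2 arrays each), against the methyl-CpG reader MBD2; shCREM_A and shCREM_B (1 array each), against the cAMP-responsive transcription factor CREM; and shMS4A1_A, shMS4A1_B and shMS4A1_C (1 array each), against MS4A1, which encodes CD20. Cells infected with non-targeting hairpins, labelled shNTC, served as controls (3 arrays). The array labels form 2 sets of 6: set 2, with numbered labels, contains shMBD2 and shNTC replicates 1 and 2, and set 1, without numbers, contains shCREM, shMS4A1 and shNTC replicate 3, and each knockdown was set against the shNTC arrays of the set it belongs to. For shCREM and shMS4A1 each array is a different hairpin, and replicate numbers 1 to 3 stand for hairpins A to C. No label says whether arrays of a group came from separate cultures. The p-values measure the spread between arrays, which may be technical, and the number of arrays limits the precision. The error of each gene was fitted over the arrays of both sets, so it includes the spread between different shCREM and shMS4A1 hairpins. As the only control of set 1, shNTC replicate 3 adds no spread of its own. Errors for comparisons with it therefore rest on the spread within the other groups.

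C/D box snoRNAs guide the 2′-O-methylation of ribosomal RNA through the methyltransferase fibrillarin, and H/ACA box snoRNAs guide pseudouridylation through dyskerin. ScaRNAs carry one or both kinds of box and guide the same modifications on spliceosomal small nuclear RNAs in Cajal bodies. In human cells most are cut out of the introns of host genes, often ribosomal protein genes or non-coding SNHG genes, while a few, such as U3 (the SNORD3 copies), SNORD13 and SCARNA2, are transcribed from genes of their own. In RefSeq (GRCh38.p14) the median length was 76.5 bases for SNORD members, 134 for SNORA members and 144 for SCARNA members. Column purification as used here retains such short RNAs poorly, and standard Illumina labelling usually primes on poly(A) tails, which mature snoRNAs lack. Whether a probe read the mature RNA, a precursor or another transcript of the locus cannot be told apart in these data.

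By position in RefSeq, 196 members lay inside 1 gene, 20 inside 2 or more and 7 outside any counted gene. Counted were protein-coding, long non-coding RNA, other non-coding RNA and transcribed pseudogene entries. Entries with snoRNA, scaRNA, microRNA or LOC symbols were not counted. Some of the genes that hold a called member are shown by the stretch around their annotated start. This stretch is given because many snoRNA host genes are known to begin transcription within a run of pyrimidines (a terminal oligopyrimidine start). The genes printed were not picked by the size of the change. Each line gives 30 bases before the RefSeq start base and 10 bases from it onward, 5′ to 3′ on the gene's strand, and capitals mark the unbroken run of C and T letters that covers the start base, where it is 5 letters or longer.
SNHG12 (holds SNORA61, SNORD99 and SNORA16A), chr1:28581864-28581903, minus strand: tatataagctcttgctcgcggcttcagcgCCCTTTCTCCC
SNHG1 (holds SNORD22, SNORD25, SNORD27, SNORD30 and SNORD31), chr11:62855876-62855915, minus strand: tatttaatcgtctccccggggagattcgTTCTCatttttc
RCC1 (holds SNORA73A and SNORA73B, with SNHG3), chr1:28506013-28506052, plus strand: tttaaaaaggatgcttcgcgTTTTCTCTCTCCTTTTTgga
RPL13A (holds SNORD32A, SNORD33, SNORD34 and SNORD35A), chr19:49487578-49487617, plus strand: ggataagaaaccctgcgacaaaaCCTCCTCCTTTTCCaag
SNHG8 (holds SNORA24), chr4:118278732-118278771, plus strand: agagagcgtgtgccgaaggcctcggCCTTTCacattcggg
SNHG7 (holds SNORA17A and SNORA17B), chr9:136728175-136728214, minus strand: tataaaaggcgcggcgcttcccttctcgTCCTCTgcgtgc
SNHG16 (holds SNORD1A, SNORD1B and SNORD1C), chr17:76557734-76557773, plus strand: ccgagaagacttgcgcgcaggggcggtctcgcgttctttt
The run was 17 letters long at RCC1, 14 at RPL13A and 12 at SNHG12, where 11 of the letters fall within the printed window. Of 13 genes that hold a called member and whose start was read, 5 had no run over the annotated start: SNHG16, CEP295 (holds SCARNA9), RPL10 (SNORA70), LBHD1 (SNORA57) and SNHG3. Of these 5, only SNHG16 is printed above. A run of at least 6 letters, read on the gene's strand alone, covered the start of 39 of the 122 genes with a listed promoter that hold a member (32.0%), against 7.51% of all 27305 listed promoters. A run is a description of these letters and not a mapped start of transcription.

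Arrays differed in how many members they detected. In set 2, 167 to 179 members were detected on shMBD2 arrays, against 142 on shNTC replicate 1 and 160 on shNTC replicate 2. In set 1, 162 and 185 were detected on shCREM arrays and 172 to 186 on shMS4A1 arrays, against 179 on shNTC replicate 3. shNTC replicate 1 also detected the fewest probes, 18652 of the 48105 with complete values, where the other 11 arrays detected 19614 to 20483. Of 7 B cell marker genes with a probe, 6 were detected on all arrays. None of 6 T and NK cell markers was detected on all arrays and 2 (CD3E and CD8A) on none, 1 of 5 myeloid markers was detected on all and 1 (ITGAM) on none, and 2 of 6 epithelial and fibroblast markers were detected on all and 1 (KRT8) on none. MBD2 itself was lower under shMBD2, with a log2 difference of -1.77 ± 0.24 ( standard error from limma, adjusted p = 0.00105). MS4A1 under shMS4A1 (-1.17 ± 0.32, adjusted p = 0.29) and CREM under shCREM (undetected there, at least 1.53-fold lower, adjusted p = 0.528), each against 1 control array, did not pass the threshold.

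**Figure D1:**
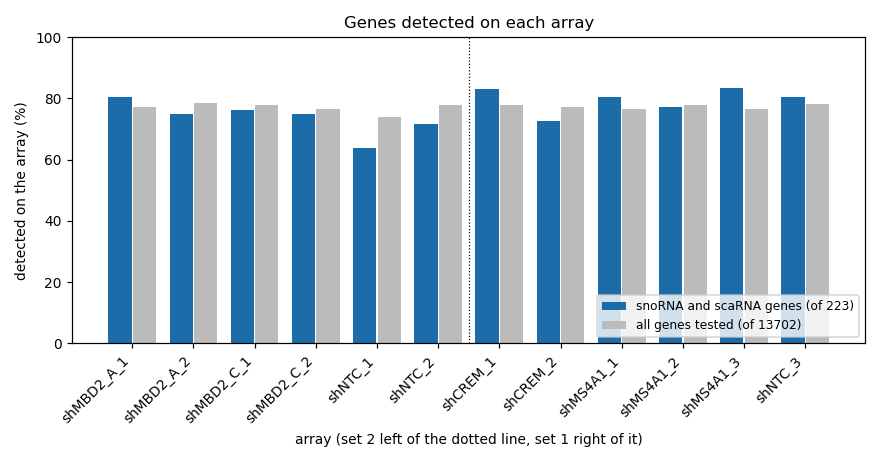
Share of genes detected (detection p under 0.05) on each of the 12 arrays, in percent, for the 223 snoRNA and scaRNA genes (blue bars) and for all 13702 genes tested (grey bars). On shNTC_1 (replicate 1) the share of members was 63.7%, the lowest of the 12 arrays, beside 73.8% of all genes.

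Under MBD2 knockdown a minority of snoRNAs was higher than in control cells. Of the 223 members, 17 were called higher (7.62%) and 1 lower (0.448%) in the mean of shMBD2_A and shMBD2_C than in shNTC, at an adjusted p under 0.05 over all genes (limma, two-sided). Over all 13702 genes, 1.55% were called higher and 1.31% lower. The 17 were U3 (SNORD3A, SNORD3C and SNORD3D), SNORD13, SNORD30, SNORD31, SNORD34, SNORD99, SNORD104, SNORA10, SNORA24, SNORA57, SNORA61, SNORA70, SNORA73A, SNORA73B and SCARNA9, and the 1 lower was SNORD38B. The median log2 fold change was 0.25 over members and 0.04 over all genes. Of the 223 members, 170 (76.2%) lay above 0, against 54.6% of all genes. These calls depended on single arrays: without shNTC replicate 1, 2 members (SNORA61 and SNORD31) were called higher and none lower, with 0.0803% of all genes called higher, while without shNTC replicate 2, 27 were called higher and 1 lower, with 4.16% of all genes called higher. Leaving out 1 shMBD2 array gave 8 to 12 called members, with 9 without shMBD2_A replicate 1, 10 without shMBD2_C replicate 1 and 8 without shMBD2_C replicate 2, where 165, 131 and 124 of all genes were called, against 392 with every array. Against shNTC replicate 2 alone, all 17 were above 0, by 0.61 to 1.27, and the member median was 0.24. Against shNTC replicate 1 alone they were above 0 by 0.88 to 2.26, and the member median was 0.28. The 17 were chosen against the mean of these same control arrays, so values above 0 against either array are no separate support for the calls. shNTC replicate 2 was higher than replicate 1 for 15 of the 17, by a median of 0.69, whereas the difference between the same arrays had a median of 0.11 over all members and 0.02 over all genes.

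**Figure D2:**
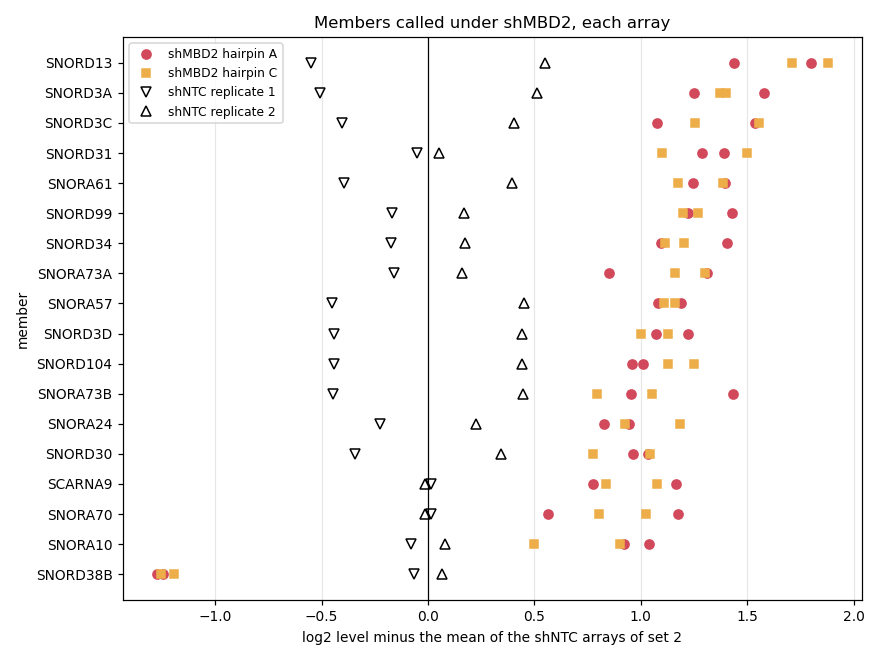
The 18 members called under shMBD2, one per row, with each array's log2 level minus the mean of shNTC replicates 1 and 2. Circles and squares are the arrays of hairpins A and C and open triangles the shNTC arrays. For 17 members all 4 shMBD2 arrays lay above both shNTC arrays, and for SNORD38B all 4 lay below. The 18 were chosen by the same contrast on these arrays, so this separation is no separate support. Such separation held for 81 of 223 members above and 7 below, and for 2286 of 13702 genes above and 1662 below.

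The level of the set 2 controls bears on the same values. The difference of shNTC of set 2 from shNTC of set 1 shares those arrays with the MBD2 comparison. For the 17 members called higher under shMBD2 it ran from -1.41 (SNORD13, adjusted p = 0.0563) to 0.2 (SCARNA9, adjusted p = 0.802) where both sides were detected, with -1.4 for SNORD3A and SNORA73A, -0.7 for SNORA61 and -0.39 for SNORD31. SNORD34, undetected in shNTC of set 2, was at least 3.43-fold lower there, and SNORD38B, undetected in shNTC of set 1, at least 2.16-fold higher in shNTC of set 2. Across all members, 1 was called higher and 21 lower in shNTC of set 2 than in shNTC of set 1, with 2.53% of all genes called higher and 3.82% lower, and the median was -0.39 over members, against 0 over all genes. It was -0.51 for SNORD, -0.29 for SNORA and -0.01 for SCARNA members. With all 3 shNTC arrays taken as 1 control group, 3 members were called higher under shMBD2, with 0.131% of all genes. The part of the array sets in the members' values was not tested.

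Among the C/D box members, SNORD13 and U3, which have genes of their own, were called. SNORD13, a C/D-like RNA that guides acetylation of the small-subunit rRNA, stood at 9.25, 8.89, 9.16 and 9.33 (normalized log2 intensity, here and below) on the shMBD2 arrays, against 6.9 and 8 on the shNTC arrays of set 2. It was higher by 1.71 ± 0.3 (3.27-fold, adjusted p = 0.00591), and the 4 shMBD2 values lay above both controls, which were themselves 1.1 apart. In set 1 the same probe read 8.65 and 9.3 in shCREM and 8.9, 8.05 and 8.95 in shMS4A1, against 8.86 in shNTC replicate 3. The 2 shNTC arrays of set 2 held the lowest SNORD13 values of the 12 arrays.

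U3 does not guide a modification but pairs with the ribosomal RNA precursor for the cleavages that release 18S rRNA. Its genes are near-identical copies, so the probes for SNORD3A, SNORD3C and SNORD3D may read the same transcripts and count as 1 RNA rather than 3. SNORD3A stood at 10.77, 10.44, 10.56 and 10.59 under shMBD2, against 8.68 and 9.7 in shNTC, a difference of 1.4 ± 0.28 (adjusted p = 0.0132). SNORD3C was higher by 1.36 ± 0.35 (adjusted p = 0.0471) and SNORD3D by 1.1 ± 0.26 (adjusted p = 0.031). SCARNA2, which also has a gene of its own and guides methylation of the U2 small nuclear RNA, differed by -0.2 ± 0.24 (limma, adjusted p = 0.739) between shMBD2 and shNTC, and its groups overlapped. Of the 7 members outside any counted gene, 4 were called higher under shMBD2, and these were SNORD13 and the 3 U3 copies. The other 3 were SCARNA2, SNORA50C (0.39 ± 0.24) and SNORD32B (-0.11 ± 0.26).

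SNORD31 and SNORD30, guides for 28S rRNA methylation, come from introns of SNHG1. SNORD31 read 8.41, 8.31, 8.52 and 8.12 under shMBD2, against 6.97 and 7.07 in shNTC, with the controls 0.1 apart. The difference was 1.32 ± 0.19 (2.5-fold, adjusted p = 0.00183), and it passed under all 25 alternative settings. SNORD30 was higher by 0.96 ± 0.24 (adjusted p = 0.041) and passed under 11 of the 25. The other members in SNHG1 had values of 0.7 (SNORD22) and 0.45 (SNORD25), neither of which passed, or was detected on no shNTC array of set 2 (SNORD27), and the host RNA itself differed by 0.33 (adjusted p = 0.15).

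SNHG12 holds both a C/D and an H/ACA member that were called. SNORA61, an H/ACA RNA, stood at 10.78, 10.63, 10.77 and 10.56 under shMBD2, against 8.99 and 9.78 in shNTC, and was higher by 1.3 ± 0.18 (2.46-fold, adjusted p = 0.00113). Like SNORD31 it passed under all 25 alternative settings. SNORD99, a guide for 28S rRNA methylation, read 8.27, 8.06, 8.11 and 8.04 under shMBD2, against 6.67 and 7.01 in shNTC, with a difference of 1.28 ± 0.23 (adjusted p = 0.00833). SNORA16A, the third member in SNHG12, differed by 0.54 ± 0.24 (adjusted p = 0.259), and SNHG12 RNA by 0.11 (adjusted p = 0.862).

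RPL13A, a large-subunit ribosomal protein gene, holds 4 members, whose values were 0.68 for SNORD32A and SNORD33, 0.84 for SNORD35A and 1.21 for SNORD34. Only SNORD34, which guides 28S rRNA methylation, passed (adjusted p = 0.0105). It read 5.88, 5.57, 5.68 and 5.59 under shMBD2, against 4.3 and 4.65 in shNTC, where it was not detected on either array, so that it was at least 2.14-fold higher. This bound sets the mean of the detected side against the undetected side, where each array counts at the probe's own level or at that array's dimmest detected probe, whichever was higher. In set 1 SNORD34 read 5.93 to 6.47 on all 6 arrays, and RPL13A mRNA differed by -0.11 (adjusted p = 0.59) under shMBD2.

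SNORD104, inside SNHG25 and a guide for 28S rRNA methylation, was higher by 1.09 ± 0.19 (adjusted p = 0.00539). SNORD38B, also a 28S rRNA guide, was the only member called lower. It stood at 4.35, 4.38, 4.43 and 4.37 under shMBD2, where it was detected on no array, against 5.56 and 5.69 in shNTC, and was at least 2.19-fold lower (adjusted p = 0.00373). In set 1 SNORD38B read 4.45 to 4.98 on all 6 arrays, so that its high values were those of the set 2 controls.

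By class, 9 of 114 SNORD members (7.89%) were called higher and 1 (0.877%) lower under shMBD2, with a median of 0.27. The H/ACA class had 7 of 88 called higher (7.95%) and none lower, with a median of 0.25. SNORA73A and SNORA73B, together known as U17 or E1, act in the processing of 18S rRNA and lie side by side within RCC1 and SNHG3. SNORA73A read 8.76, 8.3, 8.61 and 8.75 under shMBD2, against 7.29 and 7.61 in shNTC, a difference of 1.15 ± 0.18 (adjusted p = 0.00266). SNORA73B was higher by 1.06 ± 0.23 (adjusted p = 0.0197), and its second probe gave 1.03. The 2 RNAs are closely similar in sequence, so their probes may share transcripts.

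The other H/ACA members called higher were SNORA57 (1.14 ± 0.22), SNORA24 inside SNHG8 (0.97 ± 0.23), SNORA70 inside RPL10 (0.89 ± 0.19) and SNORA10 inside RPS2 (0.84 ± 0.17), each a pseudouridylation guide. Their adjusted p-values lay between 0.0113 and 0.0306. SNORA57 read 9.62, 9.51, 9.54 and 9.59 under shMBD2, against 7.98 and 8.88 in shNTC, so that the spread between the controls was wider than that among the 4 shMBD2 arrays. SNORA67, another of the H/ACA members with the highest mean signal, differed by 0.39 ± 0.18 (adjusted p = 0.284).

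Of the 21 scaRNAs, 1 was called higher under shMBD2 (4.76%) and none lower, with a median of 0.13. It was SCARNA9, which guides methylation of the U2 small nuclear RNA and lies inside CEP295. SCARNA9 read 11.58, 11.19, 11.25 and 11.49 under shMBD2, against 10.43 and 10.4 in shNTC, with a difference of 0.96 ± 0.22 (adjusted p = 0.0295). Its controls lay within 0.03 of each other, and its shMBD2 values were the highest of the 12 arrays. The other scaRNAs with the highest mean signal, SCARNA10, SCARNA13 and SCARNA16, differed by -0.1, 0.27 and 0.4, and none passed.

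The MBD2 hairpins were also read apart. For shMBD2_A against shNTC 11 members were called higher (all genes 0.496%), with a median of 0.25, and for shMBD2_C 8 (all genes 0.496%), with a median of 0.24. The counts share the same control arrays. Between the hairpins, which needs no control, no member was called (limma, adjusted p under 0.05), nor was any of the 13702 genes (0%), and 5 members and 282 genes had an unadjusted p under 0.05. The smallest of these p-values belonged to SNORD113-9, undetected in shMBD2_C and at least 1.43-fold lower there than in shMBD2_A, and SNORA7A (-1.03 ± 0.36, shMBD2_C minus shMBD2_A), both with an adjusted p of 1. The median of the difference was 0 over members.

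**Figure D3:**
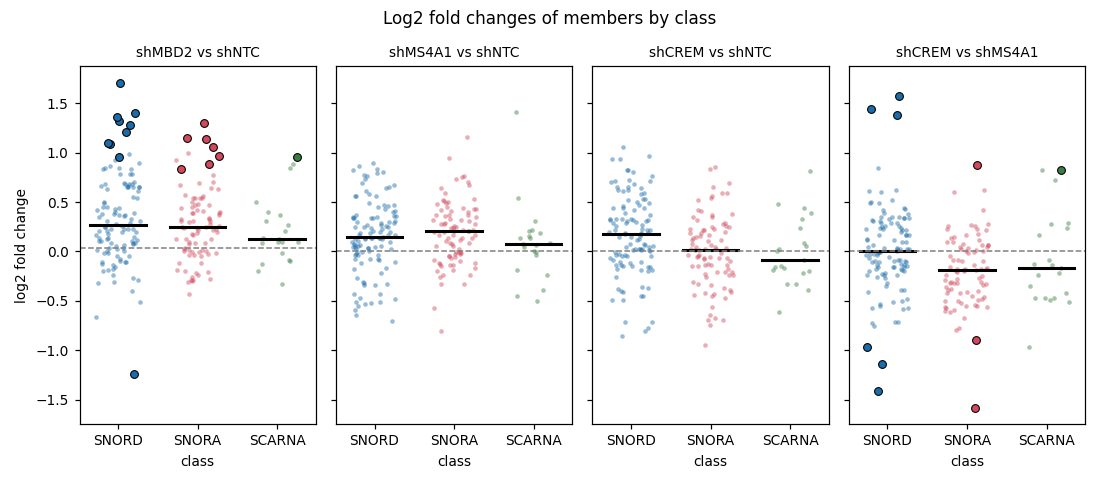
Log2 fold changes of the 114 SNORD, 88 SNORA and 21 SCARNA members in 4 comparisons. Each point is 1 member, outlined points are called at an adjusted p under 0.05, black bars are class medians and the dashed line is the median of all genes; the called members are 18 for shMBD2 against shNTC, 10 for shCREM against shMS4A1 and none in either comparison of set 1 with its control.

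CREM and MS4A1 knockdown were each compared with 1 control array, and no member was called in either comparison (limma). For shMS4A1 against shNTC 0.197% of all genes were called, and 19 members and 845 genes had an unadjusted p under 0.05. The median was 0.16 over members, against 0 over all genes, with 0.15 for SNORD, 0.21 for SNORA and 0.08 for SCARNA. Above 0 lay 155 of the 223 members (69.5%), against 50% of all genes, so most members leaned upward here as well. For shCREM against shNTC 0.0073% of all genes were called, and 21 members and 1140 genes had an unadjusted p under 0.05. The median was 0.06 over members, with 0.18 for SNORD, 0.01 for SNORA and -0.09 for SCARNA, and 131 members (58.7%) lay above 0, against 49.6% of all genes. In the fit that takes all 3 shNTC arrays as 1 group, 20 members were called higher for shMS4A1, with 0.65% of all genes, and 8 for shCREM, with 0.489%. Leaving out a shCREM array sets 1 array against 1 array, so counts of called members from such fits are not read here.

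The members with the smallest p-values under shMS4A1 did not pass. SNORA17B, an H/ACA RNA inside SNHG7, read 6.21, 5.97 and 6.59 in shMS4A1, against 5.09 in shNTC (1.16 ± 0.31, adjusted p = 0.29). SCARNA27 read 6.59, 5.76 and 5.72 in shMS4A1, against 4.62 in shNTC, where it was not detected, and was at least 2.65-fold higher without passing (adjusted p = 0.378). SNORD1A, a 28S rRNA guide inside SNHG16, differed by 0.9 ± 0.31 and SNORD31 by 0.76 ± 0.25, while SNORA70C, undetected in shMS4A1, was at least 1.75-fold lower. Under shCREM the corresponding members were SNORA57 (-0.95 ± 0.31), SNORD1B (undetected in shCREM, at least 1.72-fold lower), SNORD18A inside RPL4 (undetected in shNTC, at least 1.52-fold higher), SNORD14C inside HSPA8 (0.97 ± 0.34) and SNORA73A (-0.69 ± 0.25), with adjusted p-values between 0.402 and 0.461. The RNAs with genes of their own are given in the same order of comparisons, shMS4A1 and then shCREM: SNORD3A had -0.51 and 0.94, SNORD3C -0.51 and 1.06, and SNORD3D -0.43 and 0.94. SNORD13 had -0.22 and 0.12, and SCARNA2 had -0.24 and 0.48. Both comparisons share the single shNTC array of set 1.

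CREM knockdown set against MS4A1 knockdown within set 1 needs no control array and gave calls in both directions. Of the 223 members, 5 were called higher in shCREM (2.24%) and 5 lower (2.24%), where 2.87% of all genes were called higher and 3.25% lower, so the share of members was at or below that of all genes. The median was -0.1 over members, against 0 over all genes, with 0 for SNORD, -0.19 for SNORA and -0.17 for SCARNA. The number called was 6 without shMS4A1 replicate 1 and likewise without shMS4A1 replicate 3, where 532 and 406 of all genes were called, against 839 with every array.

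U3 was higher in shCREM. SNORD3A stood at 11.22 and 11.82 in shCREM, against 10.39, 9.46 and 10.4 in shMS4A1, a difference of 1.44 ± 0.29 (2.71-fold, adjusted p = 0.00875). SNORD3D read 11.84 and 12.08 in shCREM, against 10.94, 9.89 and 10.92 in shMS4A1 (1.38 ± 0.27, adjusted p = 0.00716), and SNORD3C differed by 1.57 ± 0.37 (adjusted p = 0.0189). On all 3 probes shMS4A1 replicate 2 was the lowest array of set 1, and shNTC replicate 3 lay between the shCREM and shMS4A1 means. SNORD13 did not pass (0.34 ± 0.31, adjusted p = 0.616) and neither did SCARNA2 (0.72 ± 0.25, adjusted p = 0.112).

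Also higher in shCREM were SNORA14B, a pseudouridylation guide inside TOMM20 (0.88 ± 0.25, adjusted p = 0.0484), and SCARNA7, inside KPNA4. SCARNA7 read 5.37 and 5.24 in shCREM, against 4.54, 4.44 and 4.44 in shMS4A1, where it was detected on no array, and was at least 1.73-fold higher (adjusted p = 0.0443). These last calls were the least stable of the 10, passing under 12 and 9 of 24 alternative settings.

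Lower in shCREM than in shMS4A1 were SNORA17B, SNORD30, SNORD31, SNORD1A and SNORA57. SNORA17B read 4.62 and 4.72 in shCREM, against 6.21, 5.97 and 6.59 in shMS4A1 (-1.58 ± 0.25, adjusted p = 0.00176). SNORD30 read 6.42 and 6.04 in shCREM, against 7.66, 7.65 and 7.61 in shMS4A1 (-1.41 ± 0.25, adjusted p = 0.00396), and SNORD31 6.92 and 7.14, against 7.98, 8.18 and 8.36 (-1.14 ± 0.2, adjusted p = 0.00398). These 3, with SNORD3D, passed under all 24 alternative settings. All 3 had their shNTC replicate 3 value between the groups, at 5.09, 7 and 7.41. SNORD1A (-0.97 ± 0.25, adjusted p = 0.0295) and SNORA57 (-0.9 ± 0.23, adjusted p = 0.0301) passed under 16 and 13 of the 24.

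**Figure D4:**
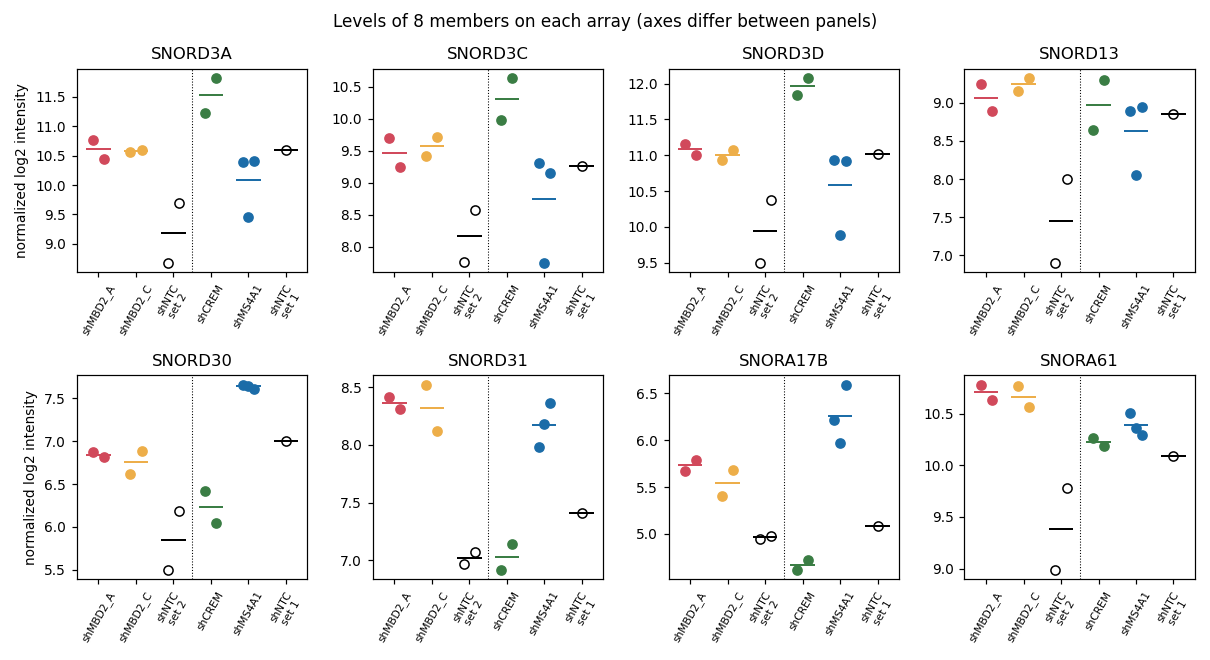
Normalized log2 intensity of 8 members on every array, with a bar for each group mean; set 2 lies left of the dotted line and set 1 right of it, and the axes differ between panels. The U3 probes (SNORD3A, SNORD3C, SNORD3D) were highest in shCREM, SNORD30, SNORD31 and SNORA17B were higher in shMS4A1 than in shCREM, and for all but SNORA17B the 2 shNTC arrays of set 2 held the lowest mean of the 6 groups.

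Members and the genes that hold them were measured by different probes in the same fit, for 168 members inside a single measured host (105 hosts). Under shMBD2, 8 of these 168 members were called higher and none lower. Of the 105 hosts, none was called higher and 2 were called lower. Over all genes 1.55% were called higher and 1.31% lower, so the host counts were near the share of all genes. The median was 0.23 over these members, against 0.01 over the hosts, and Pearson's r between member and host was 0.18 over the 168 members, a description only, since members in 1 host share its value and all points share the arrays. The 2 hosts called lower were MBD2 itself and RABGGTB. MBD2 holds SNORA37, which read 4.62, 4.58, 4.59 and 4.45 under shMBD2, against 5.07 and 4.91 in shNTC (-0.43 ± 0.2, adjusted p = 0.278). SNORA37, named here after its values were seen because its host is the targeted gene, was detected on 1 of the 4 shMBD2 arrays and both shNTC arrays, and its difference did not pass where that of MBD2 was -1.77. RABGGTB differed by -0.61, and its members SNORD45A and SNORD45C, detected on 1 shMBD2 array each and on no shNTC array of set 2, were not called.

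Within set 1 the hosts and members were read side by side in the same way. For shCREM against shMS4A1, 2 of the 168 members were called higher and 3 lower, beside 5 of the 105 hosts called higher and 3 lower. Over all genes 2.87% were called higher and 3.25% lower. Pearson's r between member and host was 0.01. SNHG7 was called higher in shCREM (0.51 ± 0.13, adjusted p = 0.0328), while its member SNORA17B was called lower and SNORA17A differed by -0.56 (adjusted p = 0.228). SNHG8 was called higher as well (0.65 ± 0.14, adjusted p = 0.0154), while SNORA24 inside it differed by -0.55. The 4 members in SNHG1 that were detected in these groups (SNORD22, SNORD25, SNORD30 and SNORD31) lay below 0, from -1.41 to -0.39, and SNHG1 RNA differed by -0.1 (adjusted p = 0.747).

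**Figure D5:**
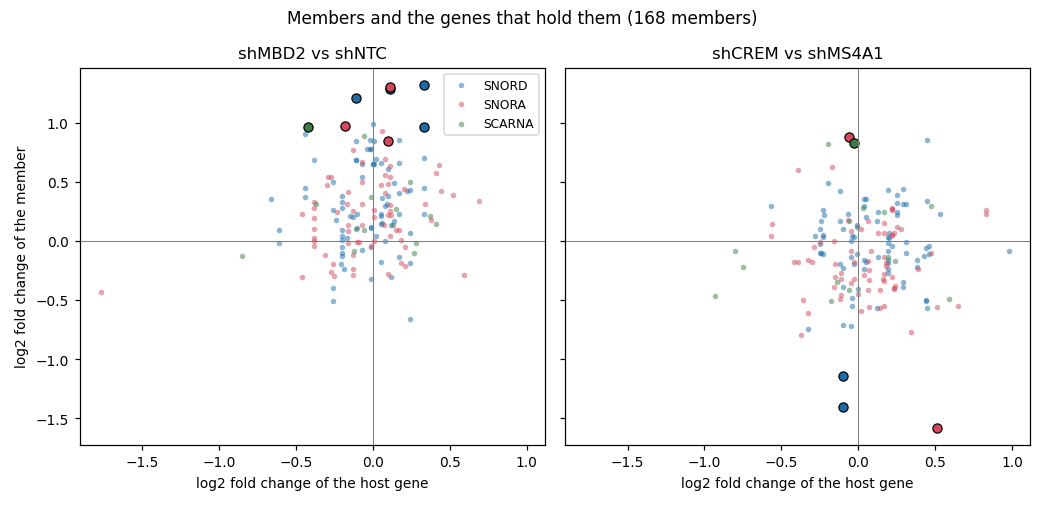
Log2 fold change of 168 members (vertical axis) against that of the single gene holding each (horizontal axis), for shMBD2 against shNTC and for shCREM against shMS4A1. Outlined points are members called at an adjusted p under 0.05; in the left panel the 8 called members lie above 0 while their hosts lie near 0, and the point at the far left is SNORA37 inside MBD2.

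The larger host clusters were described in the same way. The 3 members in ZFAS1 (SNORD12, SNORD12B and SNORD12C) had 0.99, 0.65 and 0.65 under shMBD2 with none called, and ZFAS1 RNA had 0 (adjusted p = 0.997). The 8 members of the imprinted SNORD113 and SNORD114 clusters inside MEG8 and the 7 in TAF1D, which encodes a subunit of an RNA polymerase I initiation factor, had none called under shMBD2. Inside MEG8 only SNORD114-2 was detected on all 12 arrays. The others were detected on 2 to 5 arrays, so a change in them could hardly be read. The 4 in NOP56, itself a C/D snoRNA core protein gene, lay above 0 in both set 1 comparisons with shNTC, at 0.46 to 0.82 for shCREM and 0.53 to 0.84 for shMS4A1, again with none called and sharing 1 control array.

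The proteins that carry and process these RNAs were not called under shMBD2. None of the 4 measured C/D core proteins (NOP58 0.12, FBL encoding fibrillarin -0.09), the 4 H/ACA core proteins (DKC1 encoding dyskerin 0.08, NHP2 -0.16), 10 assembly factors, 10 Cajal body genes or 21 genes of small RNA trimming and capping passed, with list medians of 0.03, 0, 0.06, -0.05 and -0.03, against 0.04 over all genes. Of these 49 genes, 8 (16.3%) had an unadjusted limma p under 0.05, against 17.5% of all genes. The lists were uneven: 7 of the 21 trimming and capping genes (33.3%) and 1 of the 10 Cajal body genes had such a p, and none in the other lists. Of 17 host genes listed by SNHG symbol or known host role, none was called (limma) and 3 had an unadjusted p under 0.05, with a median of 0.02. For shCREM against shMS4A1, 3 of those 17 were called higher (SNHG7, SNHG8 and SNHG32 at 0.38) and none lower, with a median of 0.34. Over all genes in that comparison 2.87% were called higher and 3.25% lower. In that comparison the assembly factor ZNHIT3 was higher (0.57, adjusted p = 0.0328) and the assembly factor PIH1D1 lower (-0.7, adjusted p = 0.0271). GEMIN4, of the SMN complex, was lower (-0.71, adjusted p = 0.00649), and ZCCHC7, of the nuclear polyadenylation complex that marks RNAs for the exosome, was higher (0.81, adjusted p = 0.0185).

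Short non-coding RNAs outside the snoRNA and scaRNA symbols moved in the same comparison. Of 23 measured genes of the RNU, RN7, RNY, VTRNA, RPPH1 and TERC symbols, 9 were called higher under shMBD2 and none lower, with a median of 1.04, where 1.55% of all genes were called higher and 1.31% lower. Among them were RNU6ATAC of the minor spliceosome (2.48 ± 0.33, adjusted p = 0.00102) and the U1 small nuclear RNA gene RNU1-1 (1.38 ± 0.22, adjusted p = 0.00346). Their median was -0.31 for shMS4A1 and -0.15 for shCREM, each against shNTC with none called, and -0.91 for shNTC of set 2 against shNTC of set 1, with 7 called lower. Whether RNA length, recovery on the column or labelling differed between arrays was not tested.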

How the data were processed

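Total RNA of 12 samples of Raji cells was labelled with biotin and hybridised to Illumina BeadChips, per the labels' protocols. The authors deposited raw intensity on a linear scale with a detection p-value per probe and array, per the file headers, and a second table of normalized intensity. The 2 tables name probes differently and were joined by their profiles over the arrays (48107 one-to-one matches, 48105 of them complete). Background correction and quantile normalization used neqc in limma 3.58.1 (R 4.3.3, offset 16). limma's linear model with an intensity trend was fitted to 13702 genes on all 12 arrays, with array set as a block, two-sided, with Benjamini-Hochberg adjustment and a threshold of 0.05. Errors after ± are limma's standard errors. The fit was also run on simulated data with independent noise and no shift of an array or array set. That run cannot show how far the calls depend on single arrays or on the array sets.

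Members, lists and tests were chosen with earlier results of these data known. The text names up to 10 called members per direction and comparison, or the 5 with the smallest p where fewer than 5 passed, members with genes of their own, the brightest 4 per class and up to 4 of each other list. The 7 called members beyond this rule are named as well. A holding gene is any of the counted kinds whose span contains the member in RefSeq (GRCh38.p14), without a check of strand. Entries with LOC, microRNA, snoRNA or scaRNA symbols were left out, and RefSeq is also the source of the sequences. Same-numbered arrays of set 2 did not deviate together (correlations -0.0897, -0.0125 and -0.0324), so numbers were not taken as pairs. The alternatives tried were the normalization, the offset, the detection filter, the probe rule, the block, the variance prior and leaving out each array.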

Additional observations from a re-analysis of the deposited data

How the results depend on the processing

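The 18 members called for shMBD2 against shNTC became 3 with no array set block and, over fits leaving out 1 array, 2 (without shNTC replicate 1) to 28 (without shNTC replicate 2). With a replicate block on set 2, 16 were called, all of them among the 18, and no member was called between the hairpins. All genes called for shMBD2 against shNTC were 392 in the main fit, 38 with no array set block and 241 with the replicate block. The member median of 0.25 became 0.1 with the authors' processed values, 0.11 with quantile normalization and no background correction, 0.14 with an offset of 50, 0.13 with no detection filter, 0.35 with detection on at least 6 arrays and 0.15 with no block. For shCREM against shMS4A1 the 10 called members became 6 with no detection filter, 4 with no block and 5 with arrays of set 1 alone. All genes called went from 839 to 556, 330 and 350 in these fits. Over fits leaving out 1 array of a group other than shCREM, 6 to 10 members and 406 to 1036 of all genes were called. With no block, 8 members were called for shCREM and 20 for shMS4A1 against shNTC, with medians of 0.28 and 0.35. In these fits 240 and 235 of all genes were called. Leaving out 1 shMS4A1 array gave 0 called members for shCREM, with 1 of all genes called. The 22 members called for the array set difference between shNTC arrays became 131 with the authors' processed values and 86 with each set normalized apart, where the median of all genes moved to -0.36 and -0.42, and 11 to 35 over fits leaving out 1 array. The number of all genes called in these array set fits is not given, so the member counts cannot be set against all genes. Where the median of all genes moved to -0.36 and -0.42, the counts include that shift and are no result about members alone. Signs turned for members that had not passed. With no block, SNORA73A had 0.24 for shCREM, and for shMS4A1 SNORD13 had 0.71, SNORD3A 0.43, SNORD3C 0.21 and SNORD3D 0.28. Over fits leaving out 1 array SNORD13 had -0.21 (without shCREM replicate 2) to 0.45 (without shCREM replicate 1) for shCREM, and -0.38 (without shMS4A1 replicate 3) to 0.07 (without shMS4A1 replicate 2) for shMS4A1. shNTC replicate 3 is the sole control of set 1 and could not be left out there. The cause of these changes was not tested. Signal over background limits the dimmest members: a member undetected on 1 side has only a bound.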
